A study of Drosophila melanogaster with 8 samples.

Results

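The 92 genes for the proteins of the cytosolic ribosome were examined in the Cph NanoDam data from adult fly midguts. They were taken as the protein-coding genes of the Ensembl annotation of the BDGP6 assembly whose name starts with RpL, RpS or RpLP, and they make up 92 of 13968 protein-coding genes. Of these, 54 belong to the large subunit, counting the stalk proteins RpLP0, RpLP1 and RpLP2, and 38 to the small subunit. They are spread over the genome, with 23 on chromosome arm 3R, 19 on 2L, 14 on 3L, 14 on X, 21 on 2R and 1 on chromosome 4 (RpS3A). The rule works on names, so it also took in genes named as like a ribosomal protein (RpL7-like, RpL24-like, RpLP0-like), and it left out the gene sta, which encodes a small subunit protein under another name.

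NanoDam couples a nanobody against GFP and YFP to the Dam methylase, which methylates the adenine of GATC sites near the tagged protein. In the Cph NanoDam group (genotype CphYFP x UAS-NanoDam x esgTS, 4 libraries) the esg driver expressed NanoDam in intestinal progenitors of flies whose own Chronophage (Cph), a zinc finger transcription factor, carried YFP, and in the NanoDam-only control (UAS-NanoDam x esgTS, 4 libraries) the tagged Cph was absent. Both groups were adults of 3 to 5 days reared at 18 °C and held at 29 °C for 17 h, each library came from 30 pooled midguts freed of Malpighian tubules, hindgut and proventriculus, and replicates 3 and 4 of both groups are labelled batch 2 while replicates 1 and 2 have no batch label. The authors deposited, for each library, a list of broad peaks called on that library alone, and for each Cph library a further list in which the same-numbered control served as background, termed Cph-over-control peaks below. Whether the driver stock of these crosses itself carried GFP, which the nanobody would also bind, is not given in the sources used here, and the number of progenitors per midgut was not measured, so that fewer methylating cells and less methylation per cell cannot be told apart.

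Ribosomal proteins are needed in near-equal amounts by every growing cell, and their genes are among the most strongly transcribed. In flies, loss of 1 copy of many of them gives the Minute phenotype of slow growth and thin bristles, and cells with such a loss are removed by cell competition when they lie beside wild-type cells. Their promoters usually lack a TATA box and begin transcription in a run of pyrimidines, the TCT initiator, and several are bound by the factors M1BP and DREF. In the midgut, stem cells that enter growth and division raise ribosome production. Dam that is not tethered to a protein also methylates open chromatin, which is why a NanoDam-only library is used as the control.

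For each gene 2 areas were used: the start window, which is the 500 bp on either side of every annotated transcription start, and the gene body. The start coverage of a library is the percentage of the start window that lies in peaks of the list called without a control. Peaks extend between GATC sites, so the sequences below show where those sites lie in the regions described later. The first set are regions in which Cph-over-control peaks of all 4 replicates overlapped, with GATC in capitals, written 5′ to 3′ on the strand of the gene, from the reference genome (assembly release 6). RpL27A is shown because it was enriched at least 2-fold over the control in all 4 replicates (chr2L:4457428-4457642, minus strand, 82 bp of coding exon and 133 bp of intron). RpS20 (chr3R:20822656-20822872, plus strand) and RpL18 (chr3L:7240659-7240877, minus strand) are shown as regions of coding exon and intron that reach a start window. RpL13A (chr3R:5625494-5625705, plus strand) is shown as a gene body region, 192 bp of it coding exon, in a gene whose start window holds no GATC. Each of the 4 regions holds 1 GATC.
RpL27A: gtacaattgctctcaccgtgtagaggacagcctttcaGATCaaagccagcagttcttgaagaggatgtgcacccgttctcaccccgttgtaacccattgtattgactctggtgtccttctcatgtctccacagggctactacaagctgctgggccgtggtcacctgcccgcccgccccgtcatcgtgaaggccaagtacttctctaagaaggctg
RpS20: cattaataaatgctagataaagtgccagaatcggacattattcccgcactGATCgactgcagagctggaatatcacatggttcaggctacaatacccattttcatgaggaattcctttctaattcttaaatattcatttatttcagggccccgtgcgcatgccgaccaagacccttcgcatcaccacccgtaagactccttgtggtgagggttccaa
RpL18: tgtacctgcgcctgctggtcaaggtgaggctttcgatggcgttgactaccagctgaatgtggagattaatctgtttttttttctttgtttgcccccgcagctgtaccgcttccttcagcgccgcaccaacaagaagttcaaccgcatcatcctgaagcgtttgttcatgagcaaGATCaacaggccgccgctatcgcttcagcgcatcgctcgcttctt
RpL13A: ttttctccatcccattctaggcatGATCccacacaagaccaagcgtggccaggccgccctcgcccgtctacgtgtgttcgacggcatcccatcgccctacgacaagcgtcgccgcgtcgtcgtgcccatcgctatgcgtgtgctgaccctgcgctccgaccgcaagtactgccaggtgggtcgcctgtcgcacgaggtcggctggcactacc

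The second set shows the 5′ ends of 7 of the genes, from 40 bases before to 25 bases after the annotated end, on the strand of the gene. Capitals mark CTTTC or CTTTT on the gene strand with its C within 10 bases of the annotated 5′ end, the letters taken here for a TCT initiator. The first 4 sequences have it (RpL15, chr3L:27267215-27267280, plus strand; RpL32, chr3R:30046136-30046201, minus strand; RpS5a, chrX:17148239-17148304, minus strand; RpL13A, chr3R:5624434-5624499, plus strand). The last 3 do not (RpL5, chr2L:22536859-22536924, minus strand; RpL21, chr2L:22247850-22247915, minus strand; RpL27A, chr2L:4458339-4458404, minus strand), and they are shown because RpL5 and RpL21 are the members whose pileup differed between the genotypes and RpL27A is the member with the 2-fold enrichment in all replicates.
RpL15: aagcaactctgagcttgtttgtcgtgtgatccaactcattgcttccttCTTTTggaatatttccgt
RpL32: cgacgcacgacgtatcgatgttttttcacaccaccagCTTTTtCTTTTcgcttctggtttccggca
RpS5a: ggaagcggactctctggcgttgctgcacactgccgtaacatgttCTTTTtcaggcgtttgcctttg
RpL13A: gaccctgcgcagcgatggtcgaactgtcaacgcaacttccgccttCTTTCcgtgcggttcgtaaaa
RpL5: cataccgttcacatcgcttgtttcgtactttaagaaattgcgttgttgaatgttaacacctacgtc
RpL21: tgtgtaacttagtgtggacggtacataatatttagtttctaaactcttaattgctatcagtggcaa
RpL27A: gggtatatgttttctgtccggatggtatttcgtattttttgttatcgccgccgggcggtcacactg

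The CTTTC or CTTTT initiator was found at 48 of the 92 ribosomal protein genes (52.2%) and at 925 of all 13968 genes (6.62%). On the opposite strand of the same bases it was found at 1 of the 92 (1.09%) and at 5.58% of all genes. The strands differ in base composition at a run of pyrimidines, so this share is no background for the search. TATCGATA, the DNA replication-related element that DREF binds, was searched on both strands from 250 bases before to 50 bases after the 5′ end and lay at 28 of the 92 (30.4%) and 9.36% of all genes. In that same stretch the substrate of the assay was scarcer, since GATC was present at 27 of the 92 genes (29.3%) and at 45.2% of all genes. These matches describe letters in a window and were not tested as sites.

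The libraries held 55557571 to 107278227 reads in the Cph group and 70573626 to 125721243 in the control, the control having 1.14 to 1.31 times as many reads as the Cph library of its number. Between 24775 and 30058 peaks were called per library. Of the ribosomal protein genes, 87 of 92 consist to over 95% of 50-base words that occur once in the genome, the lowest values being RpS14b (81.4%) and RpS14a (81.9%), and the authors kept uniquely mapped reads, so that peaks in these near-identical copies could be missed. Of 5 progenitor markers, esg, Sox100B and sc had start peaks in all 8 libraries, Su(H) in 6 and Delta in none. All 3 enterocyte markers also had start peaks in all 8 libraries. Peaks mark methylation and not expression, so these values do not check the labelled cell type.

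How the members compared with all genes at the start depended on the width of the window. With 500 bp on each side, a start peak was present in all 8 libraries at 36 of the 92 genes (39.1%), against 38.7% of all protein-coding genes. With 250 bp on each side it was 17 (18.5%), against 26.4%, and with 1000 bp it was 65 (70.7%), against 55.0%. With 500 bp, another 29 had one in 1 to 7 libraries, and 27 (29.3%) had none in any library, against 34.9% of all genes. In the Cph libraries of replicates 1 to 4, a start peak was present at 52, 44, 43 and 49 of the members (mean 47.0 ± 4.24, SD, n = 4), and in the controls at 52, 54, 56 and 55 (54.25 ± 1.71, SD, n = 4). The groups met at 52, and over all genes the corresponding shares were 51.2% ± 2.88 and 53.9% ± 1.01. The mean start coverage of the members was 14.9% ± 3.46 in the Cph group and 17.7% ± 0.587 in the control, where all genes had 17.8% ± 1.96 and 20.3% ± 0.925. The map of start coverage by library shows the uncovered members as a block and, at RpLP0, RpL13 and RpL22-like, single genes at which some Cph libraries lay at or near 0 while all controls were covered.

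**Figure D1:**
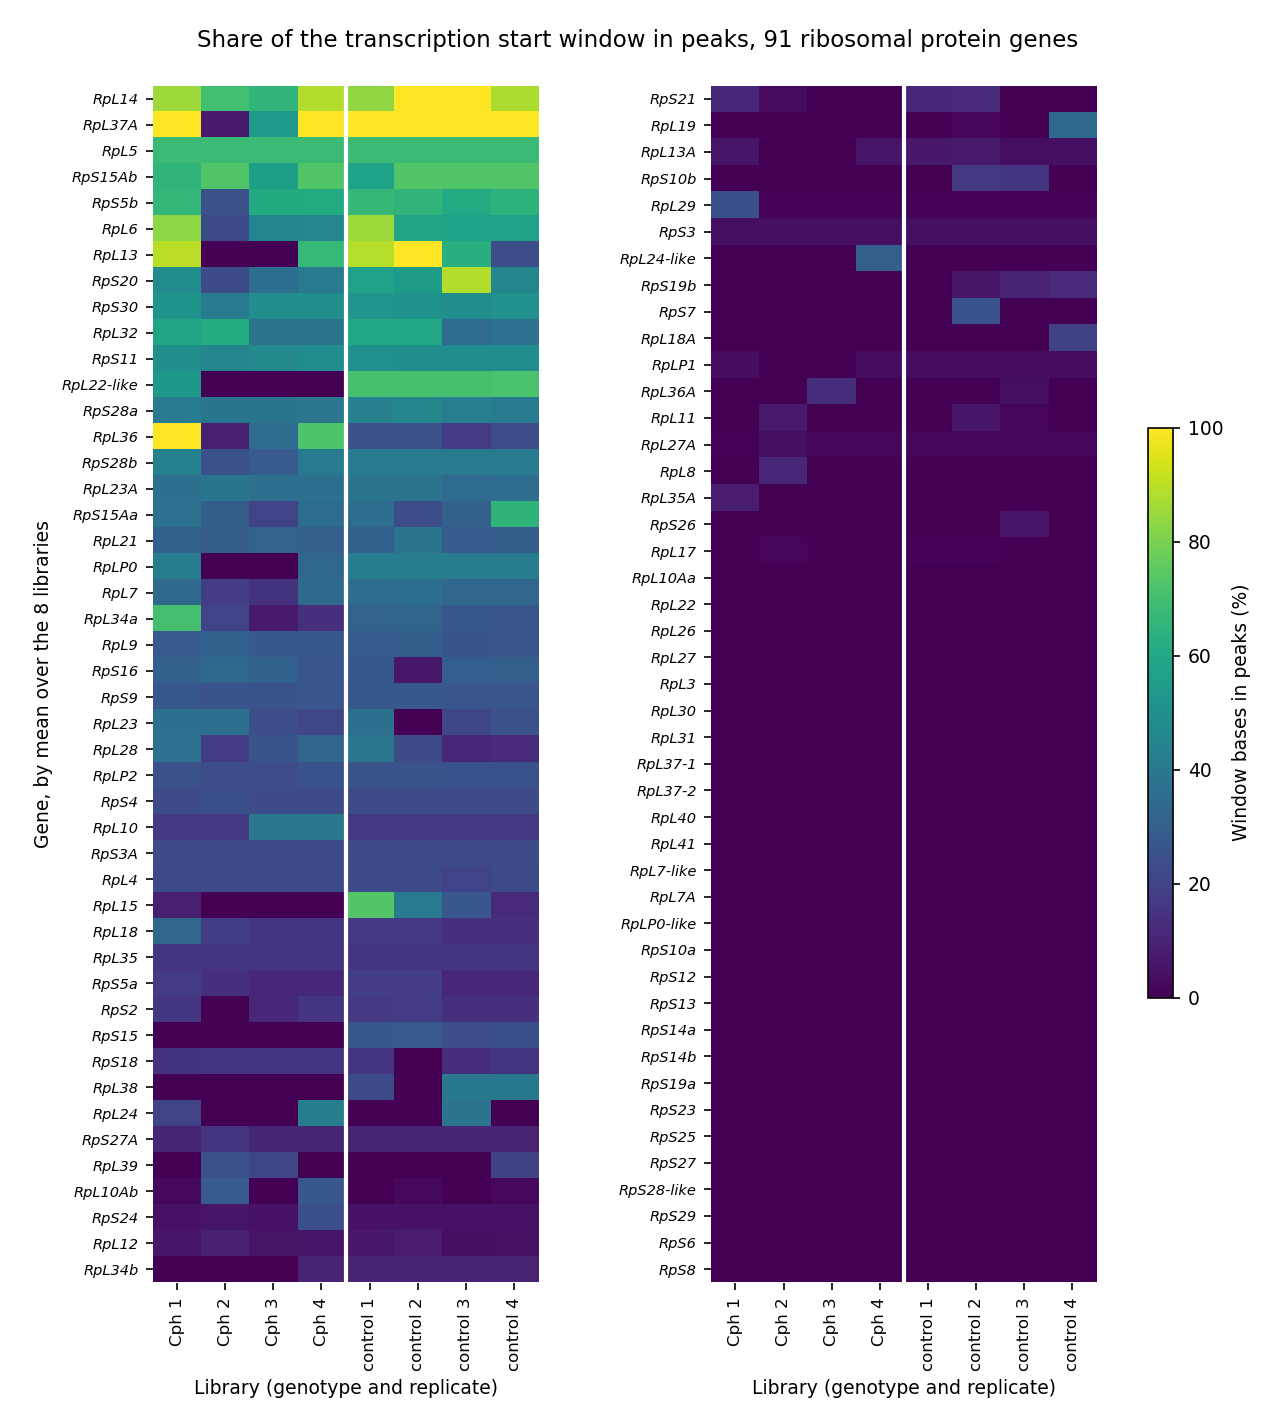
Start coverage (percentage of the start window in peaks, colour scale) of 91 ribosomal protein genes (rows) in the 4 Cph NanoDam and 4 NanoDam-only control libraries (columns). At 36 genes a peak was present in all 8 libraries and at 27 in none.

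Gene bodies of the members were in peaks more often. A gene body peak was present in all 8 libraries at 63 of 92 members (68.5%), against 59.7% of all genes, although the members are short, with a median gene length of 1315 bp against 2164 bp. The members with a gene body peak numbered 70 ± 0.82 in the Cph group and 73.5 ± 1.73 in the control (SD, n = 4). The position of the signal along the gene was examined next. In the 500 bp before the 5′ end, 6.18% ± 2.83 of the members' bases were in peaks in the Cph group and 8.42% ± 0.716 in the control, below the 12.5% and 14.9% of all genes. In the first 300 bp of the gene the values were 15.7% and 18.7%, against 19.4% and 22.3%. Between 600 and 1000 bp after the 5′ end the order turned, with 42.7% ± 3.48 and 48.4% ± 0.796 of the members' bases in peaks against 23.0% and 25.1% over all genes. Every Cph library lay above 37.9% there and every control above 47.6%. The number of GATC sites moved in the same direction, from 1.38 per kb in the 300 bp before the 5′ end (all genes 2.24) and 1.92 per kb in the first 300 bp (all genes 3.57) to 4.13 per kb between 600 and 1000 bp (all genes 3.85). Its part in the profile was not tested. In both genotypes the profile therefore had a trough over the promoter and a crest over the later part of the gene.

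**Figure D2:**
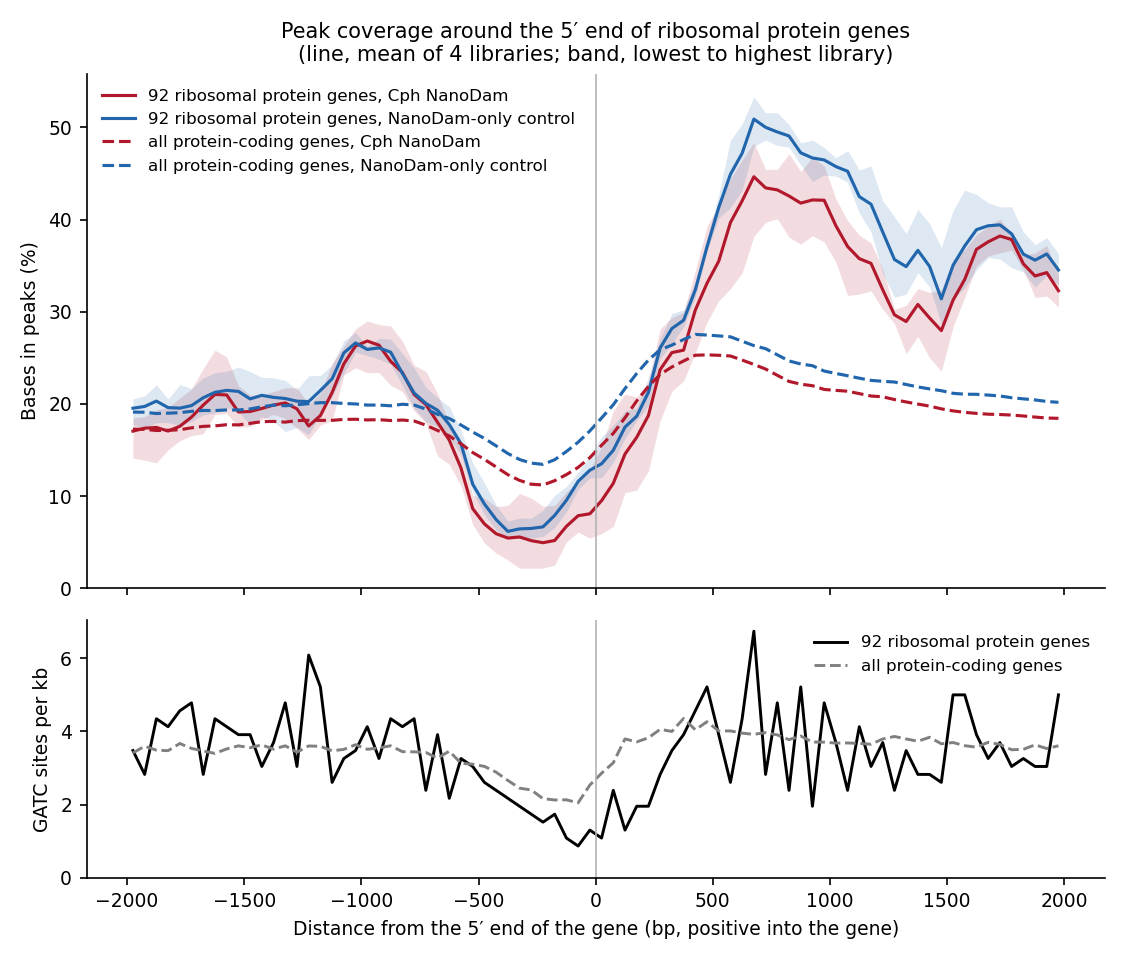
Percentage of bases in peaks (vertical axis; lines, mean of 4 libraries; bands, lowest to highest library) by distance from the annotated 5′ end in bp (horizontal axis), for the 92 ribosomal protein genes and all protein-coding genes in both genotypes, with GATC sites per kb below. Members lie below all genes just before the 5′ end and above them between 600 and 1000 bp, where their means are 42.7% (Cph) and 48.4% (control).

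By annotated feature, coding exons of the members were in peaks over 41.9% ± 4.98 of their bases in the Cph group and 50.2% ± 2.73 in the control, against 25.9% and 28.3% over all genes, at a GATC density of 5.95 per kb against 5.42. Their 3′ UTRs were covered to 29.4% ± 3.46 and 34.6% ± 3.67, against 9.48% and 10.6%, at a GATC density of 2.08 per kb against 2.67. The part of GATC density in and beside each feature was not tested. Introns, present in 86 members, were covered to 30.7% and 33.0% against 9.72% and 10.7%. The 5′ UTR was the one feature where members lay lower, with 12.8% ± 5.58 and 16.1% ± 3.93 against 20.5% and 23.2%, and it had 1.54 GATC per kb against 2.78. The 500 bp after the gene were covered to 31.8% and 34.2%, against 13.8% and 15.8%. These shares describe the lists and were not tested as a property of the members, whose shorter genes put the 3′ end nearer to the start.

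Of the 27 members without a start peak, 11 had a gene body peak in all 8 libraries, 5 in 1 to 7 and 11 in none. Their nearest peak lay 517 to 2579 bp from the 5′ end (median 759 bp), where the median of all genes without a start peak was 1238 bp. Among the 11 with a peak confined to the gene body were RpS6, the target of S6 kinase, RpS12, which is needed for Minute cells to be recognised in cell competition, and RpL3. Both RpS6 and RpS12 had 0% start coverage in all 8 libraries. RpS3, a small subunit protein at the mRNA entry site, had 3.70 to 3.80% in all 8 libraries. RpL19, a large subunit protein, was covered only in control replicate 2 (1.64%) and control replicate 4 (34.1%).

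The proteins of the stalk of the large subunit recruit elongation factors, and none of their 3 genes passed the test of start coverage described below (limma adjusted p of 0.475 for RpLP0, 0.525 for RpLP1 and 0.498 for RpLP2). RpLP0 had 42.0, 0, 0.08 and 33.9% in the Cph libraries of replicates 1 to 4 and 42.0% in each control. RpLP1 had 3.20, 0, 0 and 3.20% against 3.20% in each control. RpLP2 had 24.98, 23.5, 23.5 and 25.1% against 25.6, 25.9, 25.4 and 25.4%, so that its groups did not overlap although they differed by little. Replicates 2 and 3 were the low Cph libraries at RpLP0 and RpLP1, and these 2 libraries also had the lowest mean start coverage over all genes.

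Start windows without any GATC were found at 8 members (8.70%) and 5.41% of all genes, among them RpL13A, RpL22, RpL30, RpL37-1, RpL41, RpS23 and RpS26. Peaks reached the window of RpL13A in 6 libraries and of RpS26 in 1, and those of RpL22, RpL30, RpL37-1, RpL41 and RpS23 in none. RpL22, RpL37-1, RpL13A and RpS26 all had gene body peaks in 8 libraries, so that signal was present further into the gene. A gene body peak was present in 5 libraries at RpL30, in 4 at RpS23 and in none at RpL41.

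The highest mean start coverage over the 8 libraries was that of RpL14, RpL37A, RpL5 and RpS15Ab. RpL14 had 85.4, 69.8, 65.9 and 88.4% in the Cph libraries and 83.5, 100, 100 and 87.7% in the controls. RpL5, whose product binds the 5S ribosomal RNA, had 68.0% in all 8. At the other end, 11 members had no peak at the start or in the gene body in any of the 12 lists (11.96%, against 16.0% of all genes). They were RpL10Aa, RpL37-2, RpL41, RpLP0-like, RpS10a, RpS14a, RpS14b, RpS19a, RpS25, RpS28-like and RpS29.

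Whether tagged Cph changed the start coverage was tested with limma over 9098 genes with a start peak in at least 1 library, with the replicate number as a block and Benjamini-Hochberg adjustment over all of them. Of the 65 members tested, 1 was called lower with Cph (RpS15) and 0 higher, where 0.747% of all genes were called lower and 0.462% higher. At an unadjusted p under 0.05 there were 6 members, against 12.6% of all genes tested. The median difference of the members was -1.37 percentage points, against -0.77 over all genes, and 37 members had negative, 25 positive and 3 zero differences (56.9% negative, against 55.9% of all genes). Groups did not overlap, with Cph lower, at 4 members (RpL15, RpL22-like, RpLP2 and RpS15), where 4.73% of all genes were in this class. With Cph higher the count was 0, where 1.97% of all genes were. These shares are near the background of the table. The controls had more reads than the Cph libraries, as given above, and the part of depth in the extent of peaks was not tested.

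RpS15, a protein of the head of the small subunit, had a start coverage of 0% in the 4 Cph libraries and of 27.4, 27.9, 24.2 and 24.6% in the controls of replicates 1 to 4. All controls lay above all Cph libraries. The difference was -26.0 percentage points (SE 0.975, limma adjusted p = 0.00811), and the exact two-sided permutation test without the block gave p = 0.0286, the smallest that 4 libraries against 4 allow. The gene lies at chr2R:16570112-16571230 on the minus strand, and the difference came from the edge of 1 peak that all 8 libraries had. That edge lay 643, 545, 552 and 552 bp inside the gene in the Cph libraries and 227, 222, 259 and 255 bp inside it in the controls. After adjustment the exact test did not pass (p = 0.427). The call was also lost without replicate 3 (-26.6 points, limma adjusted p = 0.0864), without replicate 4 (-26.5 points, 0.0671), with replicates 1 and 2 only (0.262), and with windows of 250 bp on each side, which the edge hardly reaches (-2.65 points, 0.543). Over the 15 settings the adjusted p ranged from 2.3e-05 to 0.543. Cph-over-control peaks were nevertheless present in the gene body of RpS15 in replicates 3 and 4, at folds of 1.83 and 2.26, so that lower coverage at the start stood beside enrichment over the control within the gene.

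Gene body coverage was compared in the same way over 11260 genes, of which 79 were members. RpS15 was again the one member called lower, and 0 were called higher, where 0.471% and 0.142% of all genes were. Its gene body coverage was 42.5, 51.3, 50.7 and 50.7% in the Cph libraries and 79.7, 80.2, 76.9 and 77.2% in the controls (difference -29.7 points, SE 2.36, limma adjusted p = 0.0445), which is the same peak edge measured over the gene. With a replicate left out, the call held only without replicate 1. It was lost without replicate 2 (limma adjusted p = 0.188), replicate 3 (0.288) or replicate 4 (0.194), at differences of -29.97 to -30.86 points, and with peaks of at least 2-fold enrichment (0.0578). Without replicate 2 the one member called was RpL38 instead (-21.7 points, limma adjusted p = 0.0372), and the adjusted p of RpS15 ranged from 0.000865 to 0.579 over all settings. The median difference of the members was -4.49 points, against -1.15 over all genes, and 67.1% of the members had a negative difference, against 61.2% of all genes. Unadjusted p-values under 0.05 were found at 12 members, against 13.6% of all genes. Groups did not overlap, with Cph lower, at 6 members (RpL15, RpL22-like, RpL6, RpL7, RpLP2 and RpS15), where 5.36% of all genes were in this class. The class with Cph higher held 1 (RpL27A), against 1.78% of all genes.

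RpL15, a large subunit protein, had the same form of change without a call. Its start coverage was 8.78, 0, 0 and 0% in the Cph libraries and 73.1, 41.6, 27.0 and 12.1% in the controls (difference -36.25 points, limma adjusted p = 0.373), and with windows of 1000 bp on each side it passed (adjusted p = 0.024). Over the gene body it was 65.2, 29.3, 8.06 and 8.06% against 100, 92.9, 80.6 and 68.0% (difference -57.7 points, adjusted p = 0.111 by limma). In both measures the lowest control lay above the highest Cph library, and the near edge of the peak lay 414 to 1095 bp inside the gene with Cph, against 230 bp before the 5′ end to 381 bp inside it in the controls. RpL22-like, a copy of RpL22 that is enriched in the testis, had a start coverage of 53.4, 0, 0 and 0% against 71.0, 71.0, 71.0 and 71.5% (difference -57.8 points, limma adjusted p = 0.278). In Cph replicates 3 and 4 a peak began 538 and 535 bp after the 5′ end, just beyond the window, and Cph replicate 2 had no such peak. The control peaks began 210 to 215 bp before the 5′ end. RpL22-like passed without replicate 1, whose Cph library was the one with a start peak, at an adjusted p of 0.00238 with limma.

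At the other members with large differences the libraries of at least 1 genotype were widely spread. RpL37A had 100, 7.18, 53.8 and 100% in the Cph libraries and 100% in each control. RpL13 had 89.6, 0, 0 and 66.8% against 88.7, 100, 63.2 and 23.9%. At both genes Cph replicates 2 and 3 were the low ones. RpL36, an X-linked Minute gene, went the other way, with 100, 8.87, 34.8 and 72.3% against 24.7, 24.7, 17.8 and 23.5% (difference 31.3 points). None of these 3 passed in any setting, and their groups overlapped.

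The pileup at the start was compared next. The lists give a single pileup value for each broad peak, and the part of peak width in that value was not tested. The log2 of the pileup, scaled by the reads of its library (CPM), was compared over 5403 genes with a start peak in all 8 libraries, 36 of them members. Of these, 2 were called lower with Cph (RpL5 and RpL21) and 0 higher, where 1.48% of all genes tested were called lower and 4.15% higher. The median log2 difference was 0.01 for the members and 0.11 for all genes, and 7 members had an unadjusted p under 0.05, against 26.5% of all genes tested. Groups did not overlap, with Cph lower, at 4 members (RpL21, RpL36, RpL37A and RpL5), where 3.59% of all genes were in this class, and with Cph higher at 1 (RpS5b), where 7.2% of all genes were. The scale matters here, since all genes together lay 0.11 higher with Cph. With the median of all genes subtracted in each library, the calls over all genes went from 224 higher of 304 to 333 higher of 611, and 4 members were called, RpL5 (-0.87), RpL21 (-0.80) and RpL10 (-0.77) lower and RpL27A (0.64) higher, with limma adjusted p of 0.0131, 0.014, 0.0334 and 0.0442.

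RpL5 had a log2 pileup (CPM) of 3.59, 3.44, 3.44 and 3.51 in the Cph libraries and 4.24, 4.34, 4.26 and 4.13 in the controls. Every control lay above every Cph library, in a start window that was covered to the same 68.0% in all of them. The log2 difference was -0.75 (SE 0.17, limma adjusted p = 0.0393), with no difference in the extent of the peak within that window. The fold over local background at this peak overlapped between the groups, at 4.23, 4.42, 4.82 and 4.66 with Cph and 4.66, 4.41, 5.15 and 4.99 in the control. RpL21, another large subunit protein whose gene lies on 2L as well, had 3.59, 3.25, 3.67 and 3.83 against 4.32, 3.92, 4.35 and 4.44 (log2 difference -0.67, SE 0.17, limma adjusted p = 0.0495). Its groups did not overlap either, while its fold over local background did (4.96, 4.00, 5.90 and 6.15 against 5.72, 4.76, 6.94 and 6.45). Without the replicate block neither passed, with adjusted p of 0.0857 and 0.140 in limma, and of the fits leaving out a replicate RpL5 passed only in that without replicate 1 and RpL21 in none.

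RpL10, a protein that joins the large subunit late in its assembly, had a log2 pileup of 3.51, 2.79, 2.22 and 2.24 with Cph and 3.66, 3.35, 3.08 and 3.25 in the control (log2 difference -0.64, limma adjusted p = 0.0805). RpL34a had 2.26, 3.02, 2.66 and 1.59 against 3.10, 3.11, 2.51 and 3.13 (log2 difference -0.58). Both pairs of groups overlapped. The start coverage of RpL10 went the other way (11.4 points, limma adjusted p = 0.498). With replicates 3 and 4 only, RpL10 was called higher in start coverage (22.8 points, limma adjusted p = 0.0278) and lower in pileup (-0.93, 0.038). Its peak began 102 and 99 bp inside the gene in these Cph libraries and 329 bp inside it in their controls. Higher log2 pileups with Cph were those of RpL27A, at 4.29, 4.74, 5.45 and 5.01 against 4.15, 3.58, 4.32 and 4.40 (log2 difference 0.76, limma adjusted p = 0.0649), and RpS5a, at 2.56, 3.92, 4.33 and 4.38 against 2.65, 3.06, 3.58 and 3.27 (log2 difference 0.66, limma adjusted p = 0.0994). At RpL27A 2 controls (4.32 and 4.40) lay above the lowest Cph library, and at RpS5a Cph replicate 1 lay below all controls. The RpL27A values come from a peak that began 504 to 537 bp inside the gene, the same peak as at its Cph-over-control region described below. It lay outside the 500 bp around the 5′ end and was counted through an annotated start further into the gene. The RpS5a values come from a peak that began 1175 to 1208 bp inside the gene. That peak was much wider in Cph replicate 1, where it ended 2990 bp inside the gene. It ended at 1422 to 1442 bp in the other Cph libraries and at 1422 to 1671 bp in the controls. This peak was likewise counted through an annotated start further into the gene. RpS5b, the copy of RpS5a known for its role in the ovary, had 2.79, 2.94, 3.04 and 2.94 against 2.49, 2.46, 2.41 and 2.58 (log2 difference 0.44, limma adjusted p = 0.137), with no overlap. Without replicate 1, 4 members were called higher and 2 lower, where 763 of the 5403 genes tested were called, 656 of them higher. The higher ones were RpL29, RpL27A, RpL35 and RpS5a, at log2 differences of 1.05, 0.97, 0.92 and 0.91 (limma adjusted p of 0.0228, 0.0223, 0.0223 and 0.0231), and the lower ones RpL10 and RpL5.

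**Figure D3:**
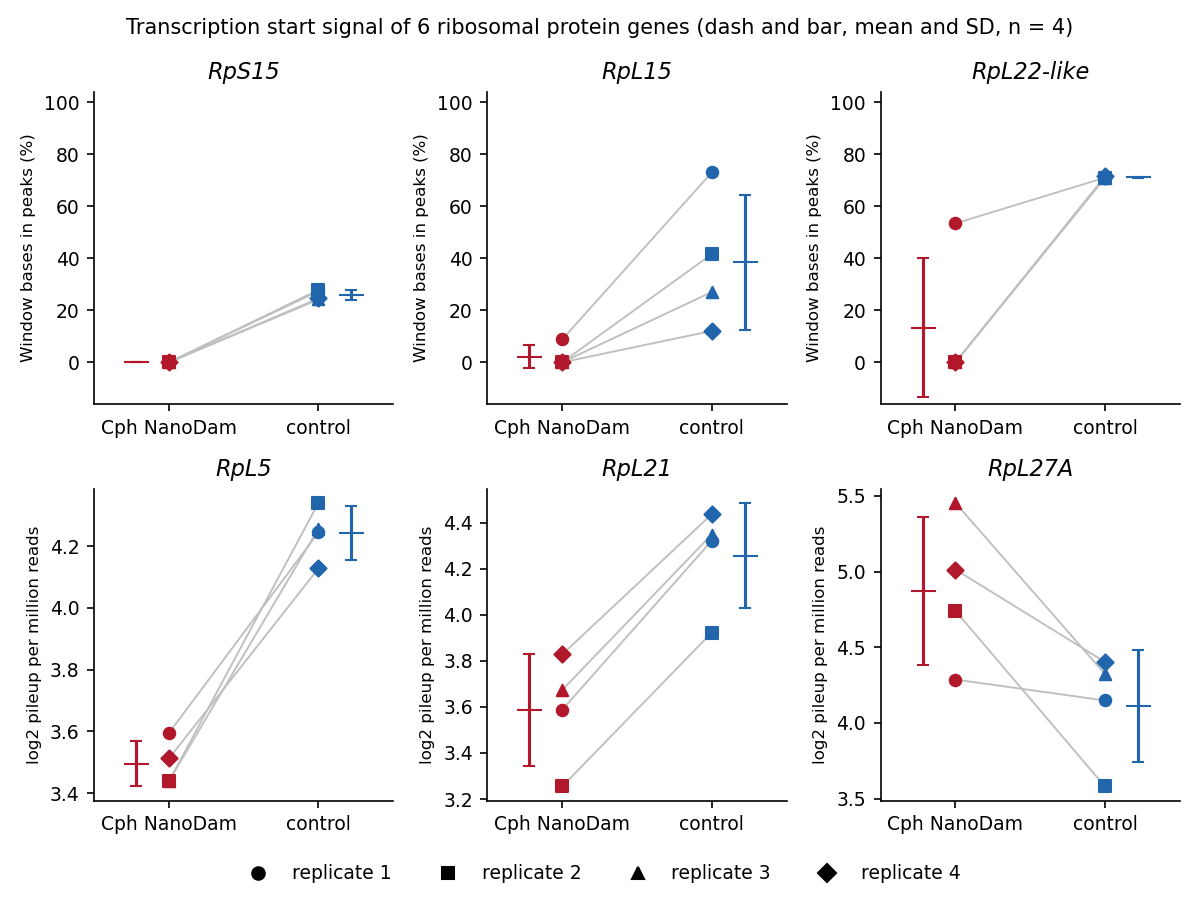
Start coverage (percentage of the window in peaks, upper panels) of RpS15, RpL15 and RpL22-like and log2 start pileup scaled to library reads (lower panels, axes not from 0) of RpL5, RpL21 and RpL27A, with 1 point per library, grey lines between libraries of the same number and a dash and bar for the mean ± SD (n = 4 per genotype). RpS15 has 0% in all Cph libraries and 24.2 to 27.9% in the controls, RpL5 and RpL21 are lower with Cph without overlap, and RpL27A overlaps between the groups.

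Cph-over-control peaks, which the authors called between the 2 libraries of a replicate, were less frequent at the members than over all genes in 3 replicates of 4. A start peak over the control was present at 22, 23, 23 and 30 members in replicates 1 to 4 (23.9, 25, 25 and 32.6%), against 34.4, 34.2, 35.6 and 31.6% of all genes. For gene bodies the counts were 33, 36, 47 and 51 (35.9, 39.1, 51.1 and 55.4%), against 51.6, 56.3, 60.3 and 51.6%. Replicate 4 stood apart, being the one replicate in which the members' share was above that of all genes. The median fold enrichment over the control at the start was 1.79 ± 0.237 for members with a peak and 1.92 ± 0.178 for all genes (SD, n = 4). No Cph-over-control start peak in any replicate was found at 52 members (56.5%), against 47.0% of all genes.

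**Figure D4:**
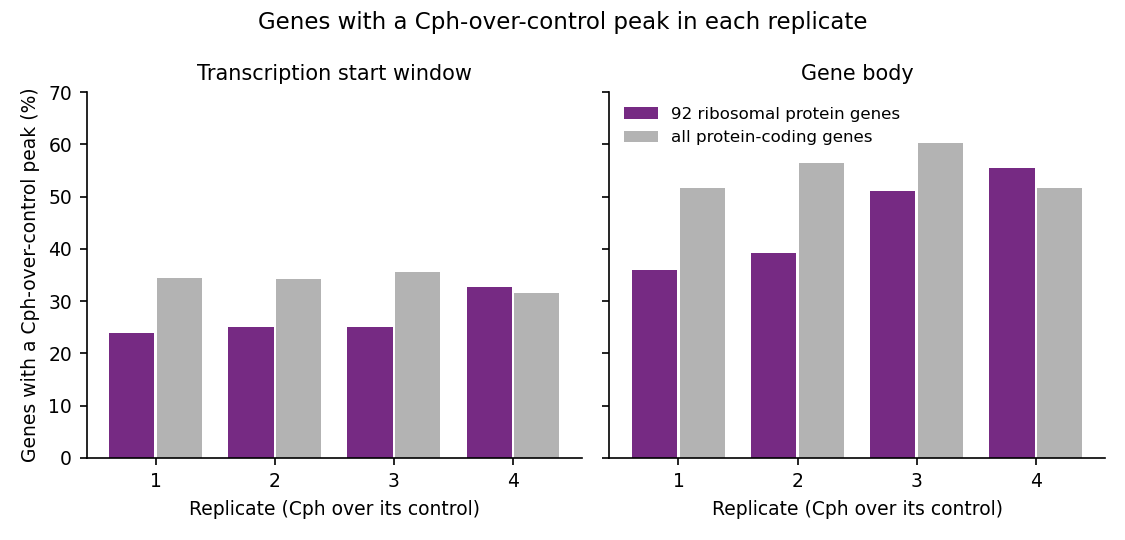
Percentage of genes with a Cph-over-control peak (vertical axis) at the start and in the gene body in replicates 1 to 4 (horizontal axis), for the 92 ribosomal protein genes and all protein-coding genes. The members lie lower in replicates 1 to 3 and higher in replicate 4 (32.6% against 31.6% at the start, 55.4% against 51.6% in the gene body).

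In all 4 replicates, a Cph-over-control start peak was present at 7 members (7.61%), against 15.8% of all genes. Replicate 1 weighed most on this count, which was 14 (15.2%) without it, against 20.3% of all genes. The 7 were RpL18, RpL32, RpL36, RpS20, RpS24, RpS5a and RpS5b. Among the 36 members with a start peak in all 8 libraries the count was likewise 7 (19.4%), against 36.6% of such genes overall. In the gene body the count was 15 (16.3%), against 35.2%, and without replicate 1 it was 26 (28.3%), against 41.9%. The 15 comprised RpL13A, RpL22, RpL23A, RpL27A, RpL28, RpL4, RpL40, RpL7A and RpS4 and the members already named except RpL36. Mitochondrial ribosomal protein genes, the set closest in function, gave 7 of 73 at the start (9.59%) and 13 of 73 in the gene body (17.8%). Both sets have short genes, with medians of 1315 and 909 bp against 2164 bp, and the part of gene length in these shares was not tested. The gene body shares without a control differed more between the sets, at 68.5% for the cytosolic and 43.8% for the mitochondrial proteins in all 8 libraries.

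A stricter count asked for at least 200 contiguous bp common to the Cph-over-control lists of the 4 replicates. Such a shared region touched the start window of 5 members (5.43%), against 13.1% of all genes, namely RpL18, RpL32, RpS20, RpS24 and RpS5b. Without replicate 1 the count was 13 (14.1%), against 18.7% of all genes. With the gene body it was 11 members (11.96%), against 28.4%, adding RpL13A, RpL27A, RpL40, RpL7A, RpS4 and RpS5a. The 11 regions were 212 to 555 bp long, 9 of them held 1 GATC, and 9 lay in a peak of all 4 control libraries, so that the enrichment was on top of signal present without tagged Cph. Their fold enrichments ran from 1.16 to 3.06. Only 1 of the 11 reached 2 in all 4 replicates.

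That region was the one of RpL27A printed above, at the boundary of an intron and a coding exon, with fold enrichments of 2.29, 3.01, 3.06 and 2.69 in replicates 1 to 4. In the lists called without a control the peak there had a fold over its local background of 4.10, 5.88, 6.73 and 5.23 in the Cph libraries and 2.90, 2.17, 3.30 and 3.69 in the controls. Every Cph value was above every control value. RpL27A was also the member whose gene body coverage was higher in all Cph libraries, at 37.998, 43.6, 37.8 and 38.1% against 34.3% in each control. The near edge of the peak lay 504 bp inside the gene in Cph replicate 2 and 533 to 537 bp inside it in the other libraries.

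RpL40, which encodes a ribosomal protein fused to ubiquitin, had 1.85, 2.63, 2.25 and 2.29 at a region over its 3′ UTR that holds no GATC and that lay in a peak of 2 of the 4 controls. RpS24 had 1.65, 1.99, 2.91 and 2.08, and RpS4 had 1.71, 1.74, 2.196 and 2.17. In these 3 genes replicate 1 was the lowest. RpL7A had 1.62, 1.95, 2.01 and 2.30. RpL32, widely used as a reference gene for expression (rp49), had 1.79, 1.70, 1.96 and 1.77. Its region covers 5′ UTR, coding exon and intron and is, with that of RpS5b, one of the shared regions nearest to a 5′ end. RpS20 had 1.82, 2.1, 1.74 and 1.65, RpL13A 1.57, 1.33, 1.46 and 1.41, and RpL18 1.16, 1.16, 1.53 and 1.58, the lowest of the set. Fold enrichments were taken as the peak caller gave them, with no test from list to list.

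**Figure D5:**
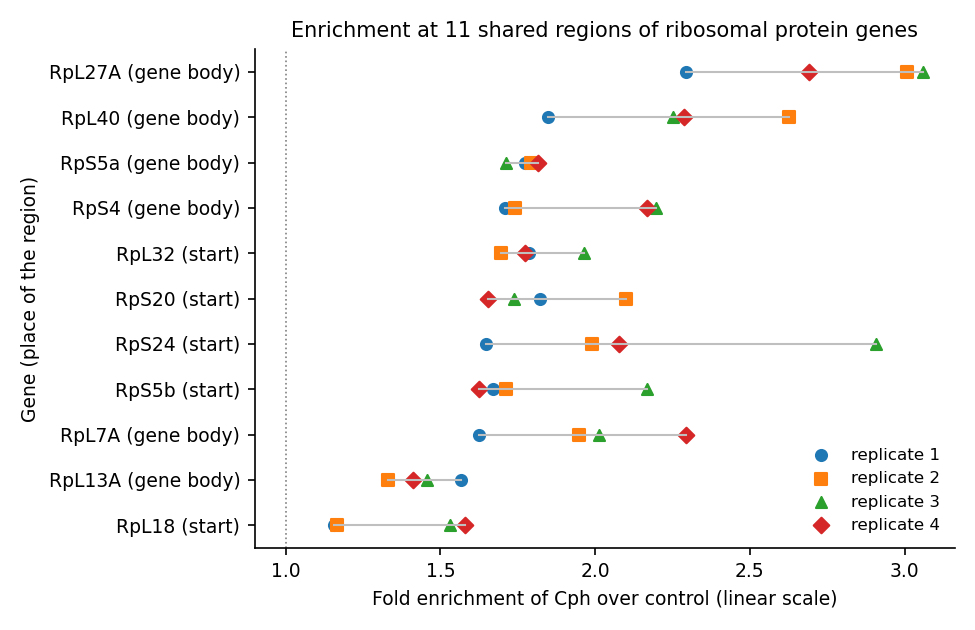
Fold enrichment of Cph over control (horizontal axis, linear) at the 11 shared regions of ribosomal protein genes (rows), with 1 point for each of the 4 replicates. RpL27A lies at 2.29 to 3.06 and RpL18 at 1.16 to 1.58.

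Fly ribosomal proteins encoded by more than 1 gene allowed copies to be set side by side, 21 members being in such groups. RpS5a and RpS5b were alike in having start peaks in all 8 libraries and Cph-over-control peaks in all 4 replicates. At RpS5b the shared region lay over 5′ UTR and coding exon, with folds of 1.67, 1.71, 2.17 and 1.62. At RpS5a it was a 555 bp stretch of intron in the gene body, with 1.77, 1.79, 1.71 and 1.82, in a peak of 3 of the 4 controls. RpS28a and RpS28b, and RpS15Aa and RpS15Ab, likewise had start peaks in all 8 libraries for both copies. Their Cph-over-control start peaks were limited to 2 replicates each.

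Other copies differed. RpL22, which has no GATC in its start window, had gene body peaks in all 8 libraries and Cph-over-control gene body peaks in all 4 replicates, while its copy RpL22-like had a Cph-over-control gene body peak in 1 replicate. RpL34a had start peaks in all 8 libraries and RpL34b in 5, and RpL37-1 had gene body peaks in all 8 libraries while RpL37-2 had none. RpL10Ab was covered at the start in 5 libraries and RpL10Aa in none. RpS10a and RpS19a had no peak, and their copies RpS10b and RpS19b had start peaks in 2 and 3 libraries, all of them controls. RpS19b still had a Cph-over-control start peak in 2 replicates. RpS14a and RpS14b had no peak in any list, and they are the members with the fewest unique bases, as given above.

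Genes that make or govern ribosomes were counted in the same way. Of 20 ribosome biogenesis factors, 9 had a start peak in all 8 libraries and 4 a shared region at the start (NHP2, Non3, vito and wcd), and 1 was called lower in start pileup, the pseudouridine synthase gene Nop60B (log2 difference -1.004, limma adjusted p = 0.0319). The 12 regulators of growth and of the response to ribosomal stress had a median gene length of 10200 bp, against 2164 bp over all genes. The part of length in their counts was not tested. Of them, 8 (66.7%) had a start peak in all 8 libraries, with 0 calls in any of the 3 measures. A shared region at the start was found at 4 (33.3%). Those 4 were M1BP, a factor that binds ribosomal protein promoters, Irbp18, the partner of Xrp1, Mnt, the antagonist of Myc, and Thor, the translation inhibitor 4E-BP. Xrp1, which acts in Minute cells, had Cph-over-control start peaks in all 4 replicates without a shared region at the start. Myc had a start peak in 1 control library. It also had Cph-over-control gene body peaks in all 4 replicates, as did 35.2% of all genes, and a shared region in the gene body. Of 6 elongation factor genes, 2 had a start peak in all 8 libraries and 0 a shared region at the start. Of the 73 mitochondrial ribosomal protein genes, 27 (37.0%) had a start peak in all 8 libraries and 5 (6.85%) a shared region there. In this set 1 was called higher and 1 lower in start coverage, 1 higher and 1 lower in gene body coverage and 1 lower in start pileup. Over all genes tested, 0.462% were called higher and 0.747% lower in start coverage, and 0.142% higher and 0.471% lower in gene body coverage. Markers of other cells of the midgut wall were also in peaks, with 1 of 3 enteroendocrine and 1 of 3 visceral muscle markers, beside the enterocyte markers, having start peaks in all 8 libraries, and the part of such cells in the members' signal was not tested.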

How the data were processed

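The values came from deposited peak lists. Per the labels and the file headers, the authors trimmed reads with Trim Galore 0.6.10, aligned them with Bowtie2 2.5.4 to BDGP6, used SAMtools 1.20, kept uniquely mapped reads and duplicates, and called broad peaks with MACS (2.1.4 in the file headers, 2.2.9.1 in the labels) at a q of 0.05, a broad cutoff of 0.1 and a genome size of 140000000. For each peak the authors deposited a pileup signal that is not scaled for depth, a fold enrichment (the ratio of pileup to background, or of Cph to control) and the −log10 of its p and q values. Replicates were called singly. The pileup gives the signal of each peak, and depth outside peaks is unknown.

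Genes came from Ensembl release 115 on assembly release 6. Coverage of start windows and gene bodies was computed from the peaks. The highest pileup value among the peaks at each start window was scaled by the reads of its library to CPM and put on a log2 scale. Genotypes were compared with limma 3.58.1 (R 4.3.3) over all protein-coding genes with a value, with the replicate number as a block, Benjamini-Hochberg adjustment and a threshold of 0.05, and the exact permutation test over 70 arrangements was an alternative. Python 3.11.15, pandas 2.3.3 and numpy 2.4.6 were used. The steps were tested on simulated data.

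The pairing comes from the authors' peak calling, in which the control with the same number served as background. Over 9098 genes, start coverage minus the group mean correlated between libraries sharing a number by 0.355, 0.181, 0.176 and 0.215, above 0.1 in every pair, while between replicates 3 and 4 the values across numbers were 0.224 and 0.300.

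The members, gene lists and tests were chosen with earlier results of these data known. Genes were named by rule: the 6 with the largest difference in start coverage and in start pileup, the 6 with the highest lowest fold over the control, those with shared regions, those with the highest coverage or no peak, duplicated copies, members of known role and genes past the threshold. RpLP1, RpLP2, RpL3, RpL29, RpL35, RpL38 and the members without GATC were added after their values were seen. Lists of other experiments were not analysed here, and 1 member is counted but not reported by name.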

Additional observations from a re-analysis of the deposited data

Results flagged for a closer look

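In 7 of 38 groups of 4 libraries examined, 1 library lay far from the others, with a gap to its neighbour above Dixon's 95% critical share of the group's range. Chance gives this in about 1 in 20 groups of continuous values. In the 3 groups of RpL22-like and RpL15 below, the other 3 libraries were tied, so that any value of the remaining library, however close, stands out, and this rate does not apply. Replicate 4 had Cph-over-control start peaks at 30 ribosomal protein genes, where the other replicates had 22 to 23. At RpL22-like, Cph replicate 1 had a start coverage of 53.45% where the other Cph libraries had 0, and control replicate 4 had 71.53% where the other controls had 71.03%. At RpL15, Cph replicate 1 had a start coverage of 8.78% where the others had 0. At RpL36, control replicate 3 had a start coverage of 17.8%, the other controls lying at 23.5 to 24.7%. RpL34a had a log2 pileup of 2.51 in control replicate 3 and of 3.09 to 3.13 in the other controls. The gene body coverage of RpS15 was 42.5% in Cph replicate 1 and 50.7 to 51.3% in the other Cph libraries. Of these 7 results, 3 concern Cph replicate 1.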

How the results depend on the processing

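The count of 36 members with a start peak in all 8 libraries was 17 with 250 bp on each side of the start and 65 with 1000 bp (all genes 26.4 and 55.0%), 3 when 50% of the window had to lie in peaks, 22 of 55 where no other gene starts in the window and 23 with peaks of at least 2-fold enrichment. The 7 members with a Cph-over-control start peak in all replicates became 3 with 250 bp (3.26%, all genes 9.36%) and 21 with 1000 bp (22.8%, all genes 27.2%). The count was 3 of 55 without starts of other genes (5.45%, all genes 14.2%) and 20 when 3 replicates sufficed (21.7%, all genes 27.3%). It was 0 at a fold of at least 2 (all genes 3.45%) and 7 to 14 when a replicate was left out (all genes 17.0 to 20.3%). In the gene body, 15 became 33 with 3 replicates (35.9%, all genes 50.5%) and 1 at a fold of at least 2 (1.09%, all genes 10.9%). It was 17 to 26 when a replicate was left out (all genes 36.3 to 41.85%). The 5 members with a shared region at the start became 0 at a length of 500 bp (all genes 2.83%) and 0 at a fold of at least 2 (all genes 3.14%). They became 2 with 250 bp (2.17%, all genes 8.15%) and 16 with 1000 bp (17.4%, all genes 21.1%). When a replicate was left out the count was 6 to 13 (all genes 14.3 to 18.7%). Among the fits with a replicate left out, the highest counts were those without replicate 1 (14, 26 and 13). The 63 members with a gene body peak in all 8 libraries ranged from 63 to 65 when a replicate was left out (all genes 60.6 to 62.0%).

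Calls of members were few under every setting. In start coverage 1 became 0 with 250 bp, 2 with 1000 bp, 0 by the exact test, 0 with replicates 1 and 2 only, 4 with replicates 3 and 4 only, and 0 to 2 when a replicate was left out. Over all 9098 genes, 110 were called in the main fit and 598 with replicates 3 and 4 only. In gene body coverage 1 became 0 at a fold of at least 2, 0 by the exact test, 0 within either pair of replicates and 0 to 1 when a replicate was left out. The main fit there called 69 of all 11260 genes. In start pileup 2 became 4 after subtraction of the median, 0 by the exact test, 0 with replicates 1 and 2, 4 with replicates 3 and 4, and 0 to 6 when a replicate was left out, the 6 being without replicate 1. Of all 5403 genes, 304 were called in the main fit and 611 after subtraction of the median. With replicates 3 and 4 the count over all genes was 424, and without replicate 1 it was 763. The exact test called 0 genes of any kind. Its smallest p of 0.0286 was adjusted to 0.427 in start coverage, 0.400 in gene body coverage and 0.265 in start pileup. At p under 0.05 it gave 4, 7 and 5 members in the 3 measures. They are the members named above whose groups did not overlap, where the shares of all genes are given. The cause of the changes between settings was not tested.

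Without the replicate block, that is with the pairing ignored, 1 member was called in start coverage, 1 in gene body coverage and 0 in start pileup. The calls over all genes were 188, 126 and 46. The median differences of the members stayed at -1.37 points and 0.01.

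The median difference in start coverage, -1.37 points, was -2.62 with 250 bp, -0.72 with 1000 bp, -0.90 with the 5′ end alone, -1.33 at a fold of at least 2, -1.37 at a −log10 q of at least 5, 0.0 without the filter on genes, -0.04995 with replicates 1 and 2, -0.45 with replicates 3 and 4 and -1.648 to -0.0333 when a replicate was left out. The median in start pileup lay between -0.05 and 0.09 when a replicate was left out. Of 179 alternatives for single members, 141 gave the same call, 28 lost it, 10 gained it and 0 changed direction.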
